A study of Oryza sativa with 8 samples.

Results

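The 89 genes described here carried the most abundant messenger RNAs of wild-type (WT) rice anthers and were lower where RNA polymerase IV had been knocked down. They were chosen from 30154 gene names by their measured values. A member had at least 500 FPKM (fragments per kilobase of transcript, normalised to sequencing depth) in WT anther, and at least 100 times its value in knockdown panicle. Its log2(FPKM + 1) was also lower by at least 1 in knockdown than in WT, in anther and in panicle. Every column of the table entered this rule, so the low knockdown levels are a description and no test is given of them.

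The plants were of the indica rice cultivar Pusa Basmati 1. The 4 groups were WT anther, nrpd1 knockdown (nrpd1_kd) anther, WT pre-emerged panicle and nrpd1 knockdown pre-emerged panicle, where NRPD1 is the largest subunit of RNA polymerase IV. Anthers were taken before they opened, and both genotypes were handled alike, per the labels. The labels list 2 libraries in each group and do not describe the construct or the number of knockdown lines. The deposited table holds 1 FPKM value per gene and group, so no difference below could be set against the spread between replicates, and depth is unknown.

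RNA polymerase IV makes the precursors of small RNAs that guide DNA methylation in plants. An anther nearing opening holds maturing pollen, which stores messenger RNAs for germination and tube growth. In grasses such stores are known for beta-expansins (cell wall loosening proteins and major pollen allergens), pectin-modifying enzymes, profilins and other actin-binding proteins, calcium sensors and kinases. In whole anthers and panicles, fewer cells of a type and less RNA per cell cannot be told apart.

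Of the 89 members, 88 are named in the table only by Os-numbers, and 1, PLIM2B, has a gene symbol. A RefSeq gene table of assembly ASM3414082v1 matched 0 of the 89 names. The division into pollen wall, cell wall, allergen and signalling families was therefore not analysed here, and the other members are called by their numbers.

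The members made up the top of the WT anther profile. All 10 of the 10 most abundant genes of WT anther were members, as were 40 of the top 50 and 68 of the top 100. Together they held 27.8% of all FPKM in WT anther, against 6.61% in knockdown anther. Their share was 3.17% in WT panicle against 0.0109% in knockdown panicle. Summed over members, the level was 177094 FPKM in WT anther against 22597 in knockdown anther. The column totals were 636692 and 341703 FPKM, so that as deposited the members made up 52.4% of the difference between the anther totals. All other genes together stood in knockdown anther at 69.4% of their WT anther sum, and the members at 12.8%. With columns centred on their medians the other genes stood at 75.4% and the members at 13.9%. With equal column totals these were 129% and 23.8%, and with quantile normalization 117% and 37.1%. The direction for the other genes thus depended on the scaling. Equal totals fix it above 100%, since the members' share of the total was lower in knockdown anther.

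**Figure D1:**
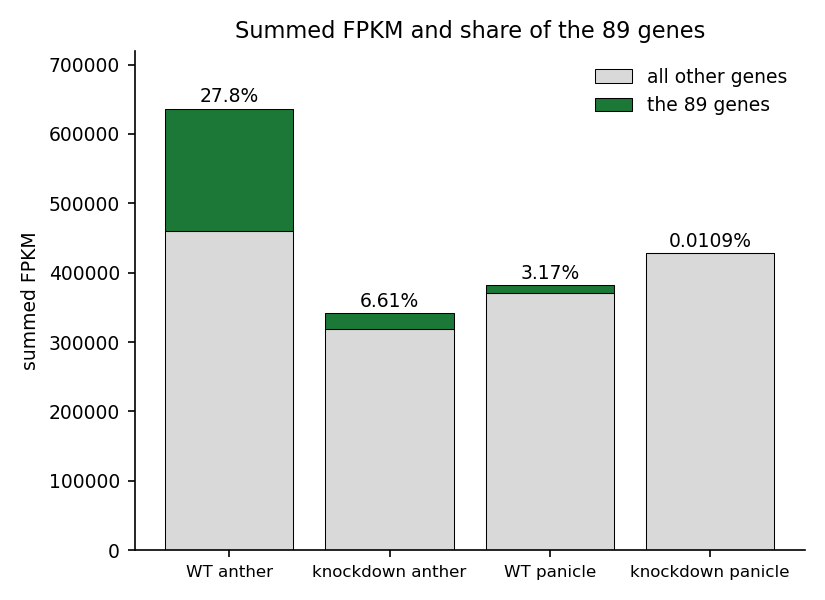
Bars show summed FPKM over all genes in each of the 4 group values, with the 89 members in green and their percent of the column total above. The members hold 27.8% of WT anther and 6.61% of knockdown anther, and their part of knockdown panicle (0.0109%) is too thin to see.

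Single levels in WT anther ran from 500.5 to 16353 FPKM with a median of 1071. In knockdown anther they ran from 3.18 to 2126 FPKM, with a median of 142. In WT panicle the range was 2.79 to 1323 FPKM and the median 81.6. In knockdown panicle 33 members were listed at 0, 74 were under 1 FPKM and the highest stood at 5.90 FPKM. Across genes the ranges of WT anther, knockdown anther and WT panicle overlapped, and that of knockdown panicle met the others only because Os03g0650300 was low in knockdown anther and WT panicle. The median difference between knockdown and WT on the log2(FPKM + 1) scale was -3.21 in anther and -6.13 in panicle, where the 33 members at 0 enter through the added 1. Over all genes compared, that is with at least 1 FPKM in either column, the medians were -0.15 and -0.03. The share of compared genes lower by at least 1 was 17.6% in anther and 10.7% in panicle, and 4.98% of genes were lower in both. The rule required both of every member, so nothing is read from its 89 of 89.

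**Figure D2:**
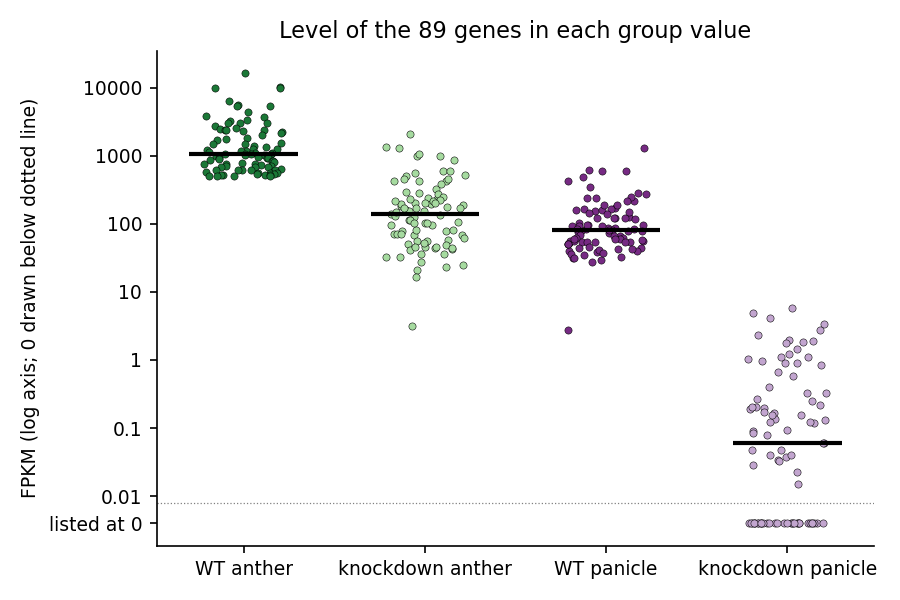
Each point is 1 of the 89 genes in 1 of the 4 group values, as FPKM on a log axis, with values of 0 drawn below the dotted line and black bars at the medians. The medians were 1071 FPKM in WT anther, 142 in knockdown anther and 81.6 in WT panicle, while in knockdown panicle 33 genes were listed at 0.

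The most abundant messenger RNA of WT anther was that of Os06g0319366 (chromosome 6, 12366338 to 12367138, build not given in the sources used here, as for all positions below). Its FPKM was 16353 in WT anther against 2126 in knockdown anther, and 1323 in WT panicle against 3.40 in knockdown panicle. It was still the gene ranked 6 in knockdown anther and 11 in WT panicle. Os01g0159500 (chromosome 1, 3122885 to 3124145) had 10201 FPKM in WT anther, 1003 in knockdown anther and 623 in WT panicle, and was listed at 0 in knockdown panicle. Os10g0548600 (chromosome 10, 21465007 to 21467082) had 9842 FPKM in WT anther against 1322 in knockdown anther, and 594 in WT panicle against 0.168 in knockdown panicle. These 3 genes kept between 9.83% and 13.4% of their WT anther level in knockdown anther, close to the median of all members. Together they held 5.72% of the WT anther total and 1.30% of the knockdown anther total.

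PLIM2B is named for the pollen class of LIM-domain proteins, which in Arabidopsis and other species bind and bundle actin filaments. Its gene (chromosome 4, 26620954 to 26622644) stood at 541 FPKM in WT anther against 71.5 in knockdown anther, and 31.8 in WT panicle against 0.0372 in knockdown panicle. WT anther was the highest of the 4 values and knockdown panicle the lowest, as in the other 88 members. Knockdown anther kept 13.2% of the WT anther level and WT panicle stood at 5.88% of it. PLIM2B ranked 136 among all genes of WT anther but 770 in knockdown anther, and it came at place 38 of the 89 in the percent kept.

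The percent kept in knockdown anther, the knockdown anther FPKM over the WT anther FPKM, differed widely among members. Its median was 10.6%, the quartiles were 7.05% and 18.3%, and single genes ranged between 0.117% and 42.9%. The size depended on the scaling between columns: for the same 89 genes the median was 27.1% (highest 118.3%) with quantile normalization and 19.7% (highest 79.9%) with equal column totals. With columns centred on their medians it was 11.5% (highest 46.6%). There were 12 members that kept under 5%, 29 that kept 5% to 10%, 31 that kept 10% to 20%, 13 that kept 20% to 30% and 4 that kept more. The order did not follow abundance. Members with at least 1000 FPKM in WT anther (48 genes) had a median of 10.9%, and those below (41 genes) a median of 10.6%. Pearson's r between both on the log2 scale was -0.04 over the 89 genes, which share their libraries, and the WT anther value enters both measures.

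**Figure D3:**
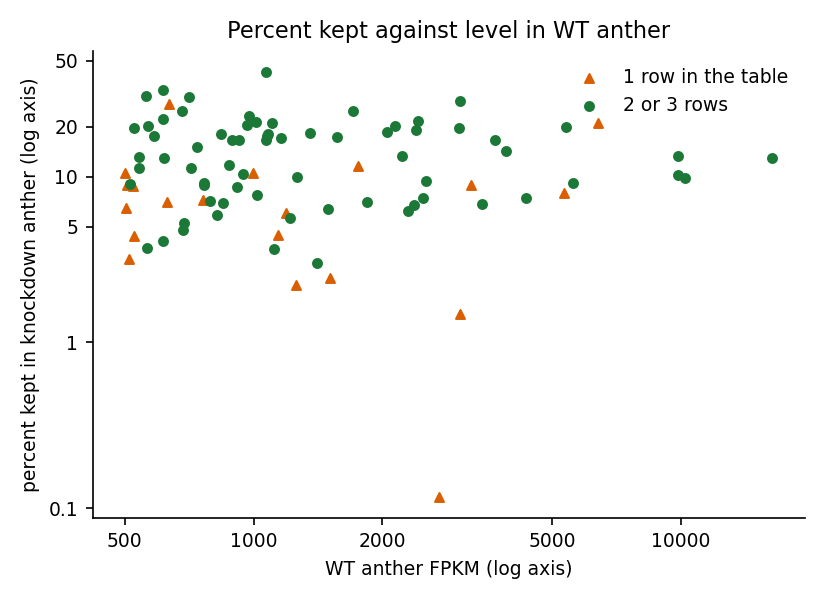
Each point is 1 of the 89 genes, with its WT anther FPKM on the horizontal log axis and its percent kept in knockdown anther on the vertical log axis, and triangles mark genes with 1 row in the table. The genes at 1000 FPKM or more have a median of 10.9% and those below of 10.6%, and the lowest 4 points are triangles.

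The genes that kept the most signal were spread over several chromosomes and levels. Os01g0314800 (chromosome 1, 11863492 to 11864530) kept 42.9%, with 1067 FPKM in WT anther against 458 in knockdown anther. Its WT panicle value was 140 FPKM and its knockdown panicle value 0.910. Os10g0351700 (chromosome 10, 10713389 to 10731028) kept 33.3%, from 615 FPKM in WT to 205 in knockdown anther, with 40.1 in WT panicle against 0.970 in knockdown panicle. Os01g0314800 was thus first in the order. With 1 value per group, its gap to Os10g0351700 could not be set against the spread between replicates.

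Os01g0975900 (chromosome 1, 43115726 to 43117221) kept 30.7%, from 560 FPKM in WT to 172 in knockdown anther, with 50.9 in WT panicle against 2.00 in knockdown panicle. Os07g0247000 (chromosome 7, 8190995 to 8192780) kept 30.3%, from 705 FPKM in WT to 214 in knockdown anther, with 65.6 in WT panicle against 0 in knockdown panicle. Os01g0919200 (chromosome 1, 40097560 to 40099069) kept 28.7%, from 3045 FPKM in WT to 876 in knockdown anther, with 190 in WT panicle against 0.891 in knockdown panicle. These last 3 genes lay close together in percent kept although Os01g0919200 was far more abundant. The 17 members that kept 20% or more had a median level of 217 FPKM in knockdown anther. With quantile normalization 16 of these 17 and 5 other members were no longer lower by at least 1 in anther, and 68 of the 89 were. Os01g0314800 was then higher in knockdown anther by 0.24 on the log2 scale. With columns scaled to equal totals 6 of the 17 and 0 other members lost the call, and 83 kept it. These scalings moved the median anther change of all compared genes from -0.15 to 0.08 and 0.60. All 89 stayed lower by at least 1 in panicle under either scaling. With columns centred on their medians all 89 stayed lower by at least 1 in both tissues.

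At the other end, Os03g0650300 (chromosome 3, 25227166 to 25228502) kept 0.117%. It stood at 2711 FPKM in WT anther against 3.18 in knockdown anther, and 2.79 in WT panicle against 0 in knockdown panicle. A different member, Os03g0650350, is listed at the same position, with 1192 FPKM in WT anther against 71.7 in knockdown anther, and 88.0 in WT panicle against 0.0483 in knockdown panicle. The WT anther level was thus the higher for Os03g0650300 and the other levels were the higher for Os03g0650350. The sum of both kept 1.92%. The table gives no strand and no exon positions, so reads of these overlapping genes may have been divided differently between columns, which was not tested.

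A row joining Os09g0388550,Os09g0392050 (chromosome 9, 13319822 to 13625096) kept 1.48%, with 3037 FPKM in WT anther against 45.0 in knockdown anther, and 153 in WT panicle against 0 in knockdown panicle. Its locus holds further gene names, and the whole locus summed kept 5.32%. Os05g0594900 (chromosome 5, 29617902 to 29625993) kept 2.22%, with 1257 FPKM in WT anther against 27.9 in knockdown anther, and 79.2 in WT panicle against 5.90 in knockdown panicle. Here too another name stands at the locus, and the locus summed kept 3.69%.

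Os05g0588550 (chromosome 5, 29312929 to 29314871) kept 2.43%, with 1508 FPKM in WT anther against 36.7 in knockdown anther, and 147 in WT panicle against 1.11 in knockdown panicle. Os11g0512800 (chromosome 11, 18321529 to 18322847) kept 3.02%, with 1410 FPKM in WT anther against 42.6 in knockdown anther, and 93.9 in WT panicle against 0 in knockdown panicle. Each of these 5 genes but Os03g0650300 stood lower in knockdown anther than in WT panicle. This follows from their low percent kept, since WT panicle stood at 4.55% of WT anther or more in every member but Os03g0650300. Across the set, 66 members were higher in knockdown anther than in WT panicle and 23 were not.

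Among the members, WT panicle tracked WT anther much more closely than knockdown anther did. WT panicle stood at a median of 6.95% of WT anther, with quartiles of 6.11% and 7.87%, and 81 members lay between 5% and 10%. The upper quartile was 1.29 times the lower one, against 2.59 times for the percent kept in knockdown anther. In the 69 other genes with at least 500 FPKM in WT anther, the WT panicle percent was the more widely spread. Its quartiles there were 14.1% and 54.4%, against 25.5% and 59.7% for the percent kept. All 4 columns entered the rule, so the narrow WT panicle range describes the chosen genes and not the tissues. Os03g0388900 (chromosome 3, 15528225 to 15532454) was the highest at 14.1%, with 684 FPKM in WT anther against 32.7 in knockdown anther, and 96.7 in WT panicle against 4.20 in knockdown panicle. That rank came from summing unlike rows: 49.0 FPKM of its WT panicle value belonged to a row with 0.248 FPKM in WT anther, and its other row alone stood at 6.97%. Os01g0314800, which kept the most in knockdown anther, was next at 13.1%. Os03g0650300 was the lowest at 0.103%, followed by Os09g0434600 (chromosome 9, 15974997 to 15981136) at 4.55%. Os09g0434600 had 1161 FPKM in WT anther against 199 in knockdown anther, and 52.8 in WT panicle against 0 in knockdown panicle.

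Pearson's r of log2 FPKM between WT anther and WT panicle was 0.83 over the 89 genes and 0.97 without Os03g0650300. Between WT anther and knockdown anther it was 0.69, and 0.78 without that gene. The percent kept in knockdown anther and the WT panicle percent had r = 0.54 over the 89 genes and 0.02 without Os03g0650300, so this relation rested on 1 gene. These are correlations across genes of the same libraries, they are not tests, and the last pair shares the WT anther value. The labels do not say whether both panicle groups held anthers of the same stage. The part of such a difference in the lower knockdown panicle values was not tested.

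**Figure D4:**
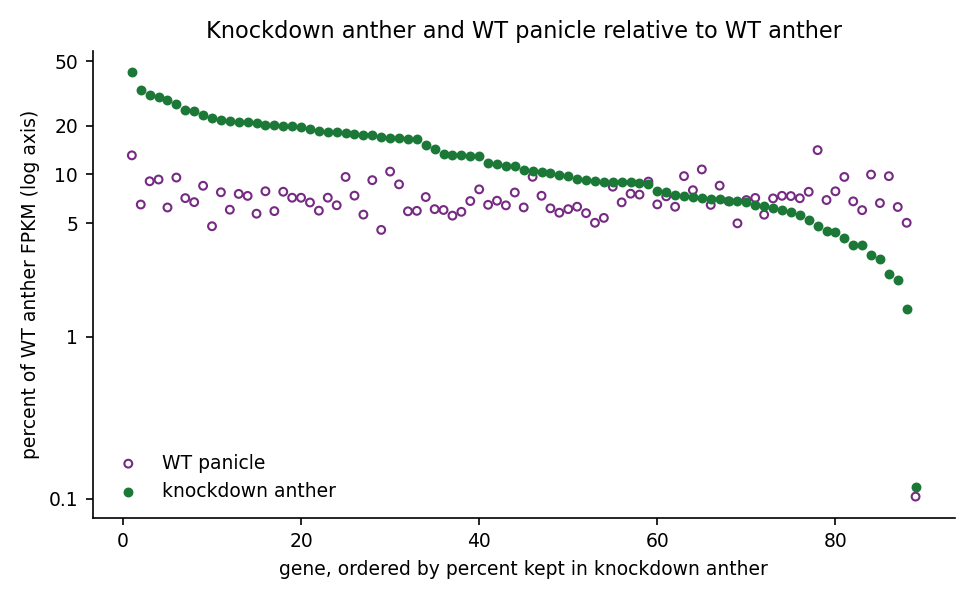
Each of the 89 genes has a filled point for knockdown anther and an open point for WT panicle, both as percent of its WT anther FPKM on a log axis, with genes ordered by the filled point. The filled points run from 42.9% to 0.117%, while 81 of the open points lie between 5% and 10%.

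Near the rule's thresholds, the members just inside the minimum were Os11g0677425 at 500.5 FPKM and Os01g0791151 at 504 FPKM in WT anther. Just outside it were Os03g0152300 at 499 FPKM and Os08g0505700 at 492 FPKM, and 422 genes missed this threshold alone. The fold over knockdown panicle was 155 for Os02g0276200 and 163 for Os03g0388900 inside, and 96.1 for Os01g0581400 and 84.4 for Os04g0284900 outside, among 18 genes that missed it alone. For Os03g0388900 the place near the threshold came from summing its unlike rows. The row with 684 FPKM in WT anther had 0.359 in knockdown panicle, and the row with 0.248 had 3.84. The smallest anther differences inside were those of Os01g0314800 at 1.22 and Os10g0351700 at 1.58 on the log2 scale, and 0 genes missed that threshold alone. In panicle the smallest were 1.92 for Os03g0650300 and 3.14 for Os02g0276200. Only Os04g0101700 missed the panicle threshold alone, with 510 FPKM in WT anther against 17.8 in knockdown anther, and 0.447 in WT panicle against 0 in knockdown panicle. Its panicle difference of 0.533 was the largest possible from so low a WT panicle value, so it could not have passed.

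Of the 158 genes with at least 500 FPKM in WT anther, 69 were not members. These kept a median of 43.7% in knockdown anther, with quartiles of 25.5% and 59.7%. Of them 41 were lower by at least 1 in knockdown anther and 22 in knockdown panicle. Their WT panicle level had a median of 29.7% of WT anther, against 6.95% for the members. The rule separates the 2 sets, so this contrast is a description.

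Position and locus span did not enter the rule directly. A locus can hold several gene names, as it did for 21 members, so its span is not always that of 1 gene. The loci of the members had a median span of 1593 bp, against 4302 bp for the 20322 genes with at least 1 FPKM in any column and 3995 bp for the other 69 abundant genes. Spans under 2000 bp were found for 57.3% of the members and for 17.4% of the 20322 genes. FPKM, the unit of the rule's thresholds, is a level per transcript length, so length could enter the selection, and transcript lengths are not in the table. Among members, Spearman's rho between the percent kept and the span was -0.25.

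Members lay on all 12 chromosomes. Chromosome 1 held 13, chromosome 2 held 12, chromosome 6 held 11 and chromosome 5 held 10. Chromosome 10 had 8 members among 1021 genes at 1 FPKM, or 0.783%, and chromosome 6 had 0.68%. Chromosome 8 had 2 among 1362, or 0.147%, and chromosome 3 had 6 among 2702, or 0.222%.

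There were 9 members, or 10.1%, within 50 kb of another member, in 4 groups. Of the other 69 abundant genes 6, or 8.70%, lay that near to another of their set, a similar share. On chromosome 2, Os02g0127100 (1416572 to 1417696), the row joining Os02g0127300,Os02g0127400 (1419979 to 1428457) and Os02g0127500 (1430329 to 1430927) followed each other within 14.4 kb. In WT anther they stood at 967, 6408 and 3031 FPKM, and knockdown anther had 200, 1359 and 595. The WT panicle values were 55.4, 486 and 218 FPKM, and those of knockdown panicle 0, 0.668 and 0. Their levels differed several-fold, but the percent kept was 20.6%, 21.2% and 19.6%.

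On chromosome 10, Os10g0323600 (8927880 to 8929230) had 1352 FPKM in WT anther against 247 in knockdown anther, and 97.2 in WT panicle against 0.0401 in knockdown panicle. Its neighbour Os10g0323900 (8936726 to 8938318) had 1013 FPKM, 217, 61.4 and 0.0332 in the same order. They kept 18.3% and 21.4%, and no other gene name lay between them. On chromosome 6, Os06g0662300 (27306654 to 27307472) had 889 FPKM in WT anther against 149 in knockdown anther, and 92.6 in WT panicle against 0 in knockdown panicle. Os06g0662900 (27333373 to 27334080) had 1567 FPKM in WT anther against 274 in knockdown anther, and 145 in WT panicle against 0 in knockdown panicle. They kept 16.8% and 17.5%. Between them lay 5 further names, all listed at 0 in knockdown panicle. These were low in WT panicle as well, at 2.28 FPKM or less, so the value of 0 is near the floor. The highest of them in WT anther, Os06g0662550, had 23.9 FPKM there and kept 22.4%. Neighbours in 3 of the groups thus kept shares within 1.17 times of each other, and in the group on chromosome 3, the overlapping pair given above, they differed by 51.4 times. Neighbouring genes may share sequence, and how reads matching several copies were assigned is not given in the sources used here.

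**Figure D5:**
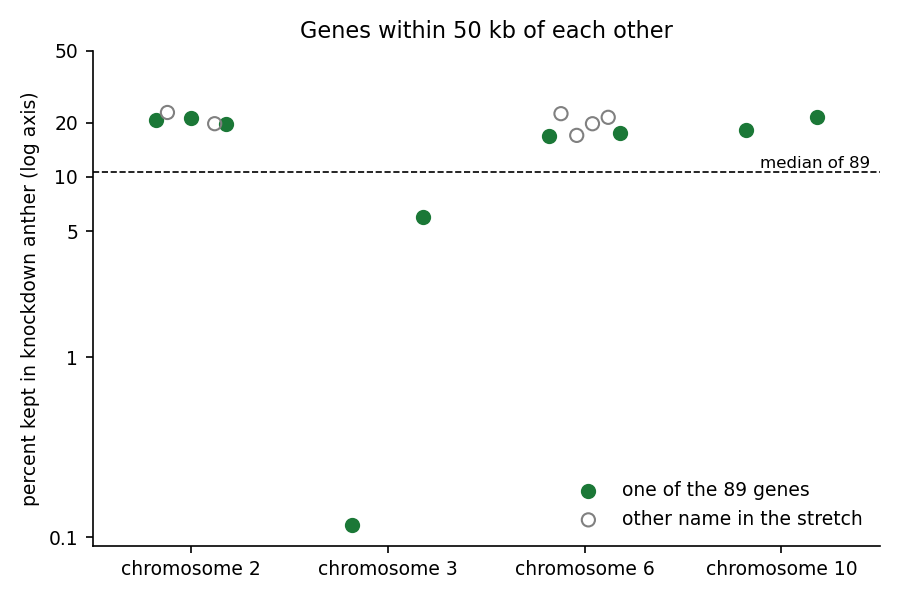
Points show the percent of WT anther FPKM kept in knockdown anther (log axis) for the 9 genes within 50 kb of another of the 89, by chromosome, with open circles for other gene names in the same stretch at 1 FPKM or more in WT anther and a dashed line at the median of 10.6%. The groups on chromosomes 2, 6 and 10 lie between 16.8% and 22.7%, and the overlapping pair on chromosome 3 lies at 0.117% and 6.02%.

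The table lists 68 members in 2 rows, 1 in 3 rows and 20 in a single row. Single-row members kept a median of 7.14% (quartiles 4.11% and 9.36%), and 2-row members kept 13.3% (quartiles 7.69% and 19.7%). Of the 12 members that kept under 5%, 7 had a single row, and of the 17 that kept 20% or more, 2 did. Over genes with at least 20 FPKM in WT anther the median anther difference was -0.72 for 1321 single-row names and -0.66 for 3424 names of 2 rows. Single rows and shared loci went together, since 18 of the 20 single-row members stood at a locus with another gene name, against 3 of the others. The part of the row structure in the percent kept was not tested.

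Other names at a member's locus did not all move with it. At the locus of Os10g0465700 (chromosome 10, 17180758 to 17185871) the member had 3893 FPKM in WT anther against 555 in knockdown anther, and 238 in WT panicle against 0.837 in knockdown panicle. Os10g0465800, at the same locus, had 101 FPKM in WT anther against 108 in knockdown anther, and 106 in WT panicle against 106 in knockdown panicle. The member was high in WT anther and near 0 in knockdown panicle, while its neighbour lay between 101 and 108 FPKM in all 4. At the locus of Os02g0150250 (chromosome 2, 2772123 to 2774760) the member kept 8.94% and the other name, Os02g0150200, kept 9.43%, with 3221 and 104 FPKM in WT anther. Both loci were chosen after their values were seen.

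Genes of the pathways under question were looked up by symbol, and few have one in the table. Of the actin cytoskeleton list 2 were found, PLIM2B and FH5, a formin that promotes actin filament growth in rice. FH5 had 19.9 FPKM in WT anther against 15.9 in knockdown anther, and 16.4 in WT panicle against 17.4 in knockdown panicle, so it stood far below PLIM2B in WT anther and did not share its pattern. For signalling 1 was found, RAC1, a small GTPase, with 13.2, 10.7, 7.38 and 13.3 FPKM in the same order, and it passed the threshold in neither tissue. For the cell wall 1 was found, CSLD1, a cellulose synthase-like gene of root hairs, which stayed under 1 FPKM throughout. For allergens 0 were found. For pollen wall and tapetum 1 was found, LTP110-A, a lipid transfer protein gene. It was under 1 FPKM in both anther columns and not compared there, and it was higher in knockdown panicle, at 0.0565 FPKM in WT against 4.23, a difference of 2.31 on the log2 scale.

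Of the transport and sugar list 12 names were found and 0 were members. In anther 3 of the 8 compared were lower by at least 1 and 3 were higher, and in panicle 2 of 9 were lower and 0 higher. Over all compared genes 17.6% were lower and 7.37% higher in anther, and 10.7% and 13.2% in panicle. The 3 higher in knockdown anther were NRT2.3, a nitrate transporter gene, at 1.01 FPKM in WT against 12.5, and the monosaccharide transporter genes MST2, at 0.16 against 1.75, and MST1, listed at 0 against 1.41. MST5, also a monosaccharide transporter gene, came closest to the members, with 63.1 FPKM in WT anther against 20.3 in knockdown anther, and 5.84 in WT panicle against 0 in knockdown panicle. MST4, of the same family, had 35.4, 13.1, 11.0 and 6.52 FPKM. The remaining gene lower in anther, the row joining SUT2,Os12g0641300, had 54.0, 19.0, 32.2 and 26.7 FPKM. It was not lower by at least 1 in panicle. Besides MST5, MST6 was lower in panicle, with 19.8, 15.7, 16.3 and 7.44 FPKM, and not by at least 1 in anther. All of these were far under the 500 FPKM of the rule.

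Stage could be checked only in part. Of the 14 late pollen markers listed, 2 were found by name and their levels differed. PLIM2B was abundant in WT anther, whereas MST8, a sugar transporter gene of rice anthers, was at 0.0416 FPKM there and under 1 FPKM in every column. Of 11 tapetum markers 1 was found, DTM1, needed for tapetum and meiocyte development in rice, at 38.1 FPKM in WT anther against 21.2 in knockdown anther, and 20.1 in WT panicle against 24.0 in knockdown panicle. With so few markers found, the members are described by their levels in WT anther and not by a stage. The markers' part in the members' pattern was not tested.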

How the data were processed

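Total RNA of 8 libraries (4 groups, 2 libraries each) was sequenced with a directional kit, per the labels' protocols. The deposited table gives FPKM, 1 column per group, per the file headers. Trimmomatic, HISAT2 and Cufflinks 2.2.1 are named in the submitters' processing notes. The genome build, the annotation and how libraries were combined are not given in the sources used here. Columns of samples outside the series numbered 0.

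The 43897 rows were summed by name to 30154 genes. Differences were taken on the log2(FPKM + 1) scale, on which the change of a low gene appears smaller than it is. Genes were compared at 1 FPKM or more in either column and counted as lower at a difference of at least 1. With 1 value per group no test, standard deviation or interval is given. The rule's members and all lists were chosen with earlier results of these data known. Genes were named by symbol, by rank in WT anther, by percent kept, by WT panicle percent, as neighbours within 50 kb or at the thresholds, and others are marked. Names of the form AGPL and AGPS, starch genes, were not taken as arabinogalactan proteins. The code of the selection was run on simulated columns in which only chosen genes were set to pass. That run checks the code and not the rule. Alternatives changed the pseudocount, filter, scaling, thresholds and summing of rows. Python 3.11.15, numpy 2.4.6, pandas 2.3.3 and matplotlib 3.10.9 were used.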

Additional observations from a re-analysis of the deposited data

How the results depend on the processing

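No paired analysis was possible because each group is a single deposited column without a replicate number, so fits with a replicate block and fits leaving out a replicate were not run either. Of the recomputed set sizes, medians and counts, 38 stayed within 1.5 times the reported value and 11 did not. Quantile normalization left 43 members, all among the 89, with a median of 24.1% kept in knockdown anther and 14.4% in WT panicle. Equal totals left 63 members, all among the 89, with medians of 19.3% and 11.5%, and lowered the count of genes lower in knockdown anther from 3164 to 1296. Of the 89, 68 stayed lower by at least 1 in anther with quantile normalization and 83 with equal totals, and all 89 in panicle with both. The further members lost failed the rule's other conditions, the FPKM minimum or the fold over knockdown panicle, on the scaled values. A minimum of 200 FPKM gave 178 members and a minimum of 1000 FPKM gave 48. A log2 difference of 2 left 942 genes lower in knockdown anther and 691 in knockdown panicle, and a filter of 5 FPKM left 1323 in panicle. Of 24 members recomputed singly, 9 lost a call, all in anther under quantile normalization or equal totals. This was 13 values short of the threshold and 1 that changed sign, that of Os01g0314800, to 0.24 with quantile normalization. The cause was not tested. Alternatives added after seeing the data gave 84 loci with rows of a locus summed, 90 members without the panicle condition and 86 without joined names. With loci summed, 83 of the 88 loci of members stayed in the rule and 1 locus without a member entered. The loci that left it were those of Os02g0103300, Os02g0175750, Os05g0594900, Os10g0465700 and the row joining Os09g0388550,Os09g0392050.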

Other observations

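In the 68 members listed in 2 rows, the smaller row held a median of 2.59% of the gene's WT anther FPKM and at most 11.1%. The smaller row nevertheless gave nearly the same percent kept in knockdown anther as the larger one. The median was 14.3% over smaller rows and 13.3% over larger rows, and in 67 of the 68 genes both lay within 1.5 times of each other. Spearman's rho between both measures was 0.89 across the 68 genes, which share their libraries. What distinguishes the rows of a name is not given in the table. In 1 member, Os03g0388900, the larger row in WT anther was not the larger one in all of WT anther, knockdown anther and WT panicle.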
